A study of Homo sapiens with 6 samples.

Results

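Glycolysis and the hypoxia response were described through 36 genes after depletion of the cytoplasmic long noncoding RNA CyCoNP (LINC02381) in the human neuroblastoma line SK-N-BE. The 36 genes were given as a list of symbols, which included the reference gene GAPDH, and were found by Ensembl identifier; all 36 were among the 60676 genes of the count and FPKM tables. FPKM are fragment counts divided by gene length and library total. The list held 5 genes of glucose uptake and trapping, 6 from phosphofructokinase to triosephosphate isomerase, 6 of lower glycolysis, 6 of pyruvate and lactate handling, 4 oxygen sensors and hypoxia factors, and 9 other target genes of hypoxia-inducible factors (HIF).

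Cells of both groups were differentiated for 1.5 days with 10 μM retinoic acid, and the groups differed in the small interfering RNA (siRNA) they received. The si-CyCoNP group received a pool of siRNAs against CyCoNP and the si-SCR group a scrambled control, with 3 total RNA libraries in each group. A single cell line and a single siRNA pool were used, and the labels do not say whether the replicates came from separate cultures, so that p-values measure only the spread between these samples. No low-oxygen condition was among the samples, and the labels do not give the oxygen level of the cultures.

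In glycolysis, glucose enters through facilitative transporters, is trapped and committed by hexokinase and phosphofructokinase, and is split and oxidised to pyruvate, which is reduced to lactate or passed to mitochondria. HIF factors are made of an oxygen-labile alpha subunit, HIF1A or EPAS1 (HIF-2 alpha), and a stable partner; when oxygen is present, prolyl hydroxylases of the EGLN family mark the alpha subunit for destruction, and in low oxygen the factor switches on glucose transporters, glycolytic enzymes and the EGLN genes themselves. Neuroblastoma cells, like many tumour cells, ferment much of their glucose, and EPAS1 is known in this tumour and in the sympathetic lineage it comes from. Oxygen acts on the HIF alpha subunits mainly at the protein level, which RNA sequencing does not measure.

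Total counts ranged from 3762009 to 4799407 per library, far fewer than the sequencing depth the study describes, for a reason that was not found in the tables; statements on depth refer to these counts. Of the 36 genes, 31 passed the expression filter (mean FPKM of 1 or more in at least 1 group). LINC02381 was at 14.9, 12.9 and 15.4 FPKM in the si-SCR libraries and at 0.973, 1.65 and 0.676 FPKM in the si-CyCoNP libraries (log2 fold change -3.78 ± 0.19, SE, n = 3 per group; edgeR adjusted p = 6.84e-14). On the first principal component, which held 51.4% of the variance, si-SCR replicate 3 lay at -20.9, nearer to the si-CyCoNP libraries (29.2 to 32.2) than the other si-SCR libraries did (-34.8 and -35.5). It was the si-SCR library closest to the si-CyCoNP mean for 9 of the 14 genes of the list that changed, so the counts of calls are also given without it, as are the values of genes whose call it decides. The 9 neuroblastoma markers checked were all expressed, and their summed level was 1984 to 2249 FPKM in the si-SCR libraries against 1843 to 1980 FPKM after depletion; 6 were lower in si-CyCoNP, among them CHGA (log2 fold change -1.24 ± 0.12) and CHGB (-1.01 ± 0.0902), and 1, MYCN, was higher. Of 8 mesenchymal markers, PRRX1 and COL1A2 had no count in any library. Their sum was 104 to 124 FPKM in the si-SCR libraries against 102 to 107 FPKM after depletion. The 3 higher were FN1 (2.88 ± 0.151), COL3A1 (2.83 ± 0.459) and COL1A1 (1.68 ± 0.253), from low si-SCR means of 0.697, 0.148 and 0.45 FPKM. The 2 lower, named after their values were seen, were SNAI2 (-1.27 ± 0.192) and VIM (-0.43 ± 0.0865). VIM, far more abundant, went from 56.3 to 43.9 FPKM on average. These marker shifts accompany every result below, and their part in it was not tested. In bulk RNA, fewer cells of a type and less RNA per cell cannot be told apart.

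The sequences just upstream of 5 of the genes are shown for their letters, and binding by HIF or MYC family factors was not measured. Of these 5, HK2, PFKL, EPAS1 and EGLN3 changed, and PGK1, a classical HIF target, did not pass the test. Each run is the 250 bases before an annotated start, 5′ to 3′ on the strand of the gene, taken from RefSeq on GRCh38.p14. Capitals mark the letters ACGTG or GCGTG, read on both strands, which are the core of the hypoxia response element; ACGTG also lies inside the palindrome CACGTG, the E-box used by MYC. Several of these genes have further annotated starts that are not shown.
HK2 (chr2:74833877-74834126, plus strand): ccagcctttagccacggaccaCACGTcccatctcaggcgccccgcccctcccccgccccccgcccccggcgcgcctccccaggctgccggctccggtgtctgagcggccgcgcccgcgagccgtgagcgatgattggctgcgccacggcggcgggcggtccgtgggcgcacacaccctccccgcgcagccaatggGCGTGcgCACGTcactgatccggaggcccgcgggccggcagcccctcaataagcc
PFKL (chr21:44299803-44300052, plus strand): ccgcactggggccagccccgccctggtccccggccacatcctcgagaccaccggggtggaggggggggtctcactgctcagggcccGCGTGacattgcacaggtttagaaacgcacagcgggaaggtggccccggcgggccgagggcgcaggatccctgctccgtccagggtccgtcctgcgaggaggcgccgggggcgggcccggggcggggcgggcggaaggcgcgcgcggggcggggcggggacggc
EPAS1 (chr2:46297157-46297406, plus strand): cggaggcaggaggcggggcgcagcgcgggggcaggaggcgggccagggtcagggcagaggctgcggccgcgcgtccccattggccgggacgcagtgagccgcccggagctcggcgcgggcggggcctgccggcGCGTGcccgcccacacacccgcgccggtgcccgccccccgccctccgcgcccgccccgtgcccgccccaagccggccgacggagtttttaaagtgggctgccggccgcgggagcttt
EGLN3 (chr14:33951075-33951324, minus strand): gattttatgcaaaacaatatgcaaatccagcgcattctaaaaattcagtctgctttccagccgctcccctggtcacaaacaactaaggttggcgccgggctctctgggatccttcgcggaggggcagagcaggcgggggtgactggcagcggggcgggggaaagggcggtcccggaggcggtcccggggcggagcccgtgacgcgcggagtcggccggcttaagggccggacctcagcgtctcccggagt
PGK1 (chrX:78103998-78104247, plus strand): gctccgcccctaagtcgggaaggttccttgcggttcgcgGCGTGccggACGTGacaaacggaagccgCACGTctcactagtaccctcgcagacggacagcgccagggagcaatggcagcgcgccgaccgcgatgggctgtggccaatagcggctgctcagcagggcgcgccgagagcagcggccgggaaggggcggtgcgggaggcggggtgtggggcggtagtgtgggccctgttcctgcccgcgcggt

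The HK2 and PGK1 windows each held 3 copies of the core, those of PFKL and EPAS1 held 1 each, and the EGLN3 window held none. RefSeq gave a promoter for 31 of the 36 genes, with 60 annotated starts, and 35 of these 60 windows (58.3%) held the core, against 43.2% of 35116 windows of the same length over all genes. None of the windows shown held the palindrome CACGTG, which 6.34% of the windows over all genes held. The second annotated HK2 start, not shown, had 6 copies of the core, of which 4 lay in 2 CACGTG palindromes. A match is a description of letters and not a bound site.

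Of the 31 genes tested, 6 were higher and 8 lower in si-CyCoNP at an edgeR adjusted p under 0.05, and 17 did not pass. The 14 that changed were 45.2% of those tested, against 28.4% of all 13966 genes. Of the 31, 19.4% were higher and 25.8% lower, against 14.2% and 14.2% of all genes. Here and below, the shares over all genes were not matched for expression level, which affects how often a change is called. The median log2 fold change of the 31 genes was -0.01, beside 0.01 over all genes, and the median size of the change, sign ignored, was 0.36 beside 0.31. The higher genes were SLC2A3, HK2, GPI, PFKL, PDK3 and KDM3A; the lower were PFKM, PFKP, ENO2, SLC16A1, HIF1A, EPAS1, EGLN1 and EGLN3. EPAS1 alone also passed a log2 fold change beyond 1 in size, which 5.26% of all genes did. On normalised counts the groups did not overlap for 15 of the 31 genes, 48.4% beside 40.2% of all genes. The counts moved with single libraries: without si-SCR replicate 1 there were 3 higher and 8 lower, and without si-SCR replicate 3 there were 9 higher and 7 lower. Without this library the log2 fold change was 0.96 for HK2, 0.84 for PFKL, 0.78 for PDK3, 0.47 for KDM3A and -0.61 for PFKM, in each case larger in size than with all libraries (0.75, 0.66, 0.62, 0.39 and -0.50). That library was the si-SCR library nearest the si-CyCoNP mean for each of these genes, so the larger size follows from its position. EPAS1 (-1.24 against -1.29) and EGLN1 (-0.35 against -0.43), whose nearest library was si-SCR replicate 1, became smaller in size without si-SCR replicate 3. With libraries scaled to their totals alone, 6 were higher and 7 lower, and 61.0% of all called genes were higher in place of 49.9%.

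**Figure D1:**
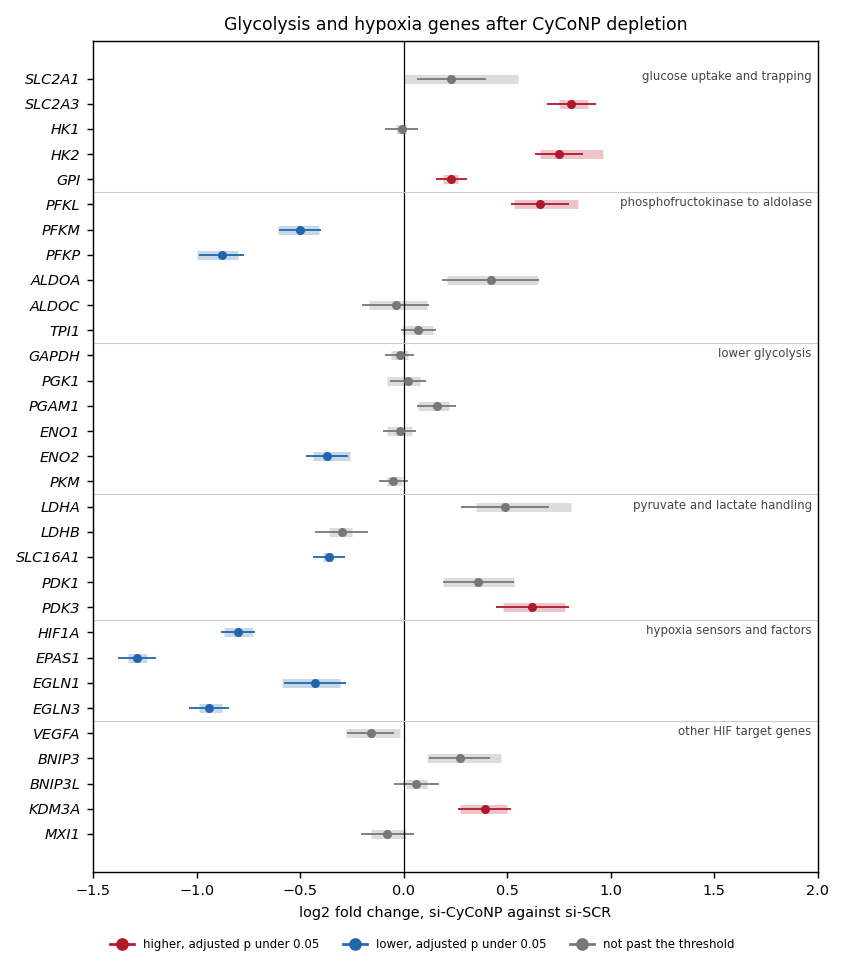
Log2 fold change of si-CyCoNP against si-SCR (horizontal axis) for the 31 genes tested, grouped by role. Points are edgeR estimates, thin lines ± 1 SE, pale bars the range when each of the 6 libraries was left out in turn, red and blue an adjusted p under 0.05; all 4 sensors and hypoxia factors lie left of 0, and EPAS1 lies furthest, at -1.29.

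The 4 sensors and factors of the list, HIF1A, EPAS1, EGLN1 and EGLN3, all passed the test as lower in si-CyCoNP, beside 14.2% of all genes. EPAS1, which encodes HIF-2 alpha (chr2:46293667-46386697), was at 20.9, 22.2 and 24.7 FPKM in the si-SCR libraries and at 10.1, 9.39 and 9.53 FPKM in the si-CyCoNP libraries. The groups were far apart, and the lowest si-SCR level was above every si-CyCoNP level. The log2 fold change was -1.29 ± 0.092 (edgeR adjusted p = 3.93e-11), which left 41.0% of the si-SCR level.

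HIF1A, the alpha subunit of HIF-1 (chr14:61695513-61748259), was among the most abundant messages of these cells, 113th by mean FPKM of the 13966 genes tested. It was at 334, 307 and 287 FPKM in si-SCR and at 202, 172 and 183 FPKM in si-CyCoNP, without overlap. The log2 fold change was -0.80 ± 0.0825 (edgeR adjusted p = 2.26e-08), which left 57.3% of the si-SCR level. Per length, HIF1A RNA was far above EPAS1 RNA in both groups. The si-SCR means were 309 ± 23.6 FPKM for HIF1A and 22.6 ± 1.94 FPKM for EPAS1 (SD, n = 3), and the si-CyCoNP means were 186 ± 15.1 and 9.69 ± 0.401 FPKM.

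EGLN3 (chr14:33924227-34462774), a prolyl hydroxylase that is itself a HIF target, was at 15.5, 14.4 and 14.0 FPKM in si-SCR and at 7.73, 8.18 and 8.09 FPKM in si-CyCoNP. Replicates of each group lay close together and the groups did not overlap (log2 fold change -0.94 ± 0.0981, edgeR adjusted p = 3.12e-08). EGLN1, the main oxygen sensor among the hydroxylases, was at 5.54, 5.78 and 6.80 FPKM in si-SCR and at 3.95, 5.73 and 4.48 FPKM in si-CyCoNP. The groups overlapped in FPKM, though not in normalised counts, and the log2 fold change was -0.43 ± 0.149 (edgeR adjusted p = 0.031). The EGLN1 call is the less certain one: 55.8% of its exon bases are shared with another annotated gene on the same strand, and it was lost in DESeq2 (adjusted p = 0.0815; 0.00808 to 0.179 over all alternatives) and when replicate 3 of si-SCR (-0.35, adjusted p = 0.0846) or replicate 1 or 3 of si-CyCoNP (-0.31 and -0.41, 0.179 and 0.0836) was left out.

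The other parts of the HIF machinery, a list of 12 genes, gave 11 tested genes with a median log2 fold change of 0.00, none higher and 1 lower. The one was RBX1, a subunit of the ubiquitin ligase that removes HIF alpha (log2 fold change -0.28 ± 0.102, edgeR adjusted p = 0.0391). The RBX1 call was lost when replicate 1 or 2 of either group was left out (adjusted p = 0.0901 to 0.147). ARNT, the stable HIF partner, was at 0.04 ± 0.112, VHL, the substrate receptor of that ligase, at 0.13 ± 0.147, HIF1AN, the asparaginyl hydroxylase of HIF alpha, at 0.12 ± 0.101 and EGLN2, the remaining hydroxylase, at -0.13 ± 0.266, none past the test; these 4 were named after their values were seen. Thus 9.09% of this list changed, beside 28.4% of all genes.

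**Figure D2:**
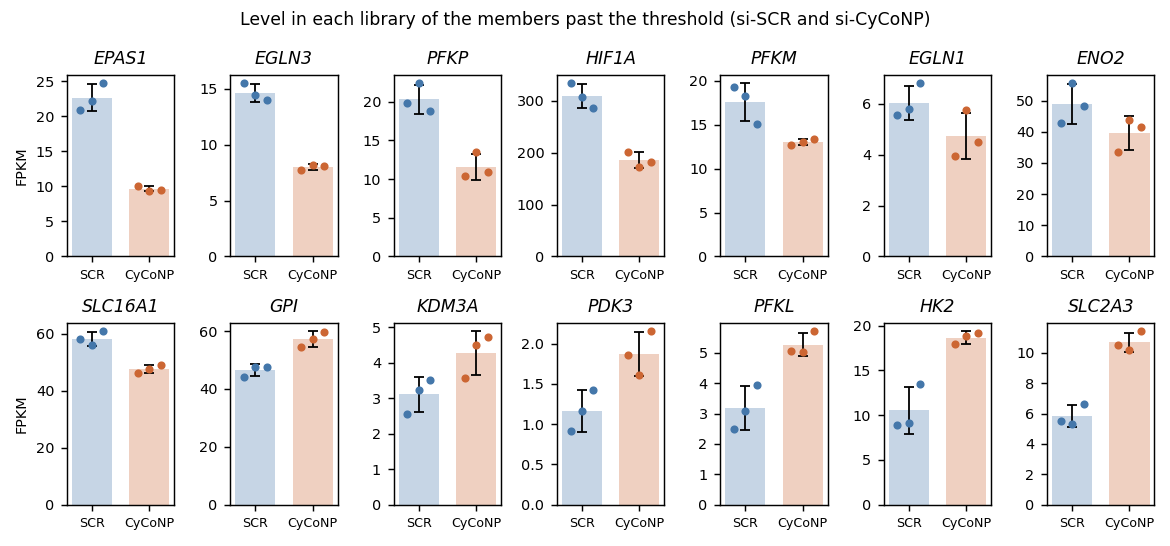
FPKM (vertical axis, from 0, scaled per panel) of the 14 genes past the threshold, ordered by log2 fold change from the lowest; points are the 3 libraries of each group in replicate order, bars the mean and lines ± 1 SD. EPAS1 falls from 22.6 to 9.69 FPKM on average and SLC2A3 rises from 5.82 to 10.7 FPKM, while EGLN1 and ENO2 overlap on this scale.

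Of the 5 genes that bring glucose into the pathway, SLC2A3, HK2 and GPI were higher (60.0%, beside 14.2% of all genes), and SLC2A1 and HK1 did not pass. SLC2A3, the high-affinity neuronal glucose transporter GLUT3 (chr12:7919230-8019007), was at 5.52, 5.30 and 6.65 FPKM in si-SCR and at 10.5, 10.2 and 11.4 FPKM in si-CyCoNP. All 3 si-CyCoNP libraries were above all si-SCR libraries, and the level was 1.75-fold higher (log2 fold change 0.81 ± 0.117, edgeR adjusted p = 5.85e-06).

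SLC2A1, the widely expressed transporter GLUT1, was at 7.28, 10.8 and 15.9 FPKM in si-SCR and at 12.2, 13.3 and 16.5 FPKM in si-CyCoNP. The si-SCR libraries were widely spread, with replicate 3 inside the si-CyCoNP range, and the log2 fold change of 0.23 ± 0.166 did not pass (edgeR adjusted p = 0.336). Single libraries decided this value. Leaving out si-SCR replicate 3 gave 0.55 (adjusted p = 0.000228). Leaving out replicate 1 of the same group gave 0.00 (0.993), and leaving out si-CyCoNP replicate 3 gave 0.09 (0.755).

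HK2, the inducible hexokinase that binds mitochondria (chr2:74834127-74893359), was at 8.93, 9.16 and 13.5 FPKM in si-SCR and at 17.9, 18.9 and 19.2 FPKM in si-CyCoNP. The groups did not overlap, with si-SCR replicate 3 the nearest to the other group, and the log2 fold change was 0.75 ± 0.116 (edgeR adjusted p = 1.37e-05). HK1, the constitutive hexokinase, was between 29.5 and 32.4 FPKM in all 6 libraries, with a log2 fold change of -0.01 ± 0.0808 (interval of 1.96 SE, -0.17 to 0.15). GPI, which turns glucose 6-phosphate into fructose 6-phosphate, was at 44.2, 47.7 and 47.6 FPKM in si-SCR and at 54.4, 57.2 and 59.8 FPKM in si-CyCoNP. Its difference was small and without overlap (log2 fold change 0.23 ± 0.0759, edgeR adjusted p = 0.0242), and it no longer passed when 1 library was left out, be it replicate 1 of si-SCR (adjusted p = 0.069) or replicate 2 or 3 of si-CyCoNP (0.0577 and 0.146), nor when libraries were scaled to GAPDH (0.0615), with a range of 0.00332 to 0.146 over all alternatives.

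At phosphofructokinase, the committed step, the 3 isoenzymes changed in different directions. PFKP, the platelet type (chr10:3066333-3137718), was at 19.8, 22.4 and 18.8 FPKM in si-SCR and at 10.4, 13.5 and 10.9 FPKM in si-CyCoNP (log2 fold change -0.88 ± 0.108, edgeR adjusted p = 4.06e-07). PFKM, the muscle type (chr12:48105139-48146404), was at 19.3, 18.2 and 15.1 FPKM in si-SCR and at 12.7, 13.0 and 13.4 FPKM in si-CyCoNP (log2 fold change -0.50 ± 0.101, edgeR adjusted p = 0.000404). PFKL, the liver type (chr21:44300051-44327376), was at 2.50, 3.07 and 3.94 FPKM in si-SCR and at 5.07, 5.04 and 5.70 FPKM in si-CyCoNP (log2 fold change 0.66 ± 0.14, edgeR adjusted p = 0.000658). For none of the 3 did the groups overlap.

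Since PFKL was the least abundant of the 3, its rise did not offset the fall of the others: the summed level of the family was 41.0 ± 2.91 FPKM (SD, n = 3) in the si-SCR libraries and 29.9 ± 1.70 FPKM after depletion. The share of PFKP in the family went from 49.5% ± 1.81 to 38.6% ± 3.59 and that of PFKL from 7.81% ± 2.28 to 17.7% ± 1.56, while PFKM kept 42.7% ± 3.31 and 43.7% ± 2.11. For hexokinase the sum was 40.5 ± 2.74 FPKM in the si-SCR libraries against 49.8 ± 1.36 FPKM after depletion, and the share of HK2 was 25.9% ± 4.50 and 37.5% ± 1.36. Of 9 such shares computed over 8 families, 4 did not overlap between the groups, those of PFKP, HK2, ENO2 and LDHB. Each had a two-sided exact permutation p = 0.1, the smallest that 3 against 3 allows (0.225 after adjustment over the 9). PFKL was added after the values were seen. All these shares are of FPKM and so depend on the gene lengths used. On counts, PFKP had 42.0% in si-SCR and 31.1% after depletion, PFKL 10.7% and 22.9%, and HK2 24.7% and 36.1%.

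**Figure D3:**
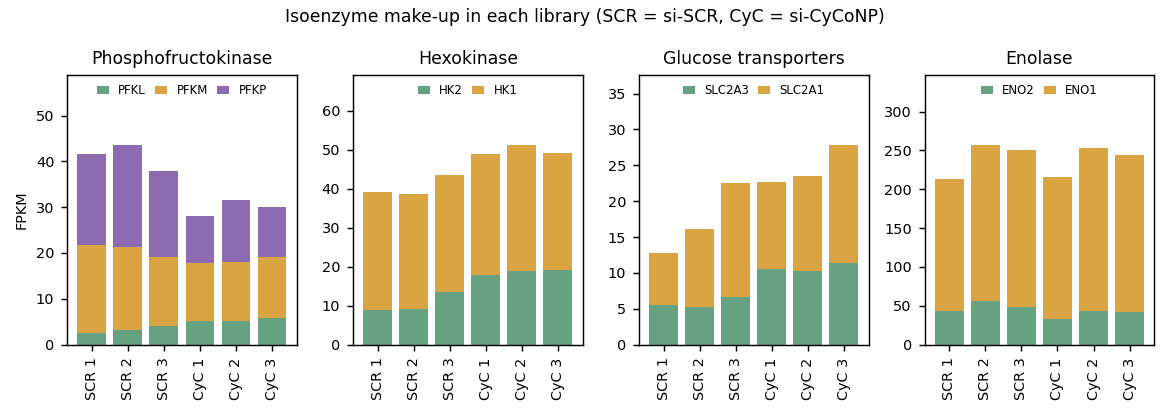
Stacked FPKM (vertical axis, from 0) of the isoenzymes or transporters of 4 families in each of the 6 libraries, si-SCR 1 to 3 and si-CyCoNP 1 to 3. The phosphofructokinase bars are shorter in all si-CyCoNP libraries (28.1 to 31.5 against 37.9 to 43.7 FPKM) with a larger PFKL part, and the hexokinase bars taller (48.8 to 51.3 against 38.6 to 43.6 FPKM) with a larger HK2 part.

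PFKFB3, which is no member of the 36, makes a fructose bisphosphate that activates phosphofructokinase. It was at 4.46, 5.13 and 6.05 FPKM in si-SCR and at 13.8, 15.5 and 13.5 FPKM in si-CyCoNP, without overlap (log2 fold change 1.38 ± 0.117, edgeR adjusted p = 8.27e-10). It belonged to a list of 22 further glycolysis isoenzymes and regulators, of which 10 were tested, 2 were higher and 3 lower (5 of 10 changed, beside 28.4% of all genes), with a median log2 fold change of -0.10. The muscle isoenzymes PGAM2 (-1.21 ± 0.426, edgeR adjusted p = 0.0337) and ENO3 (-1.14 ± 0.285, adjusted p = 0.00303) were lower at group means of at most 4.85 FPKM, and the PGAM2 call was lost when replicate 2 or 3 of either group was left out (adjusted p = 0.065 to 0.131).

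Aldolase and triosephosphate isomerase did not pass. ALDOC, the brain aldolase, was at 10.7 ± 1.78 and 10.9 ± 2.07 FPKM, and ALDOA, the muscle type, at 3.07 ± 0.895 and 4.27 ± 1.40 FPKM; 42.8% of the exon bases of ALDOA are shared with another gene on its strand, so reads common to both were dropped and its level is an underestimate. The ALDOA log2 fold change of 0.42 ± 0.234 (edgeR adjusted p = 0.195) passed when si-CyCoNP replicate 3 was left out (0.64, adjusted p = 0.0381). Leaving out replicate 2 of that group gave 0.21 (0.623), and leaving out replicate 1 or 2 of si-SCR gave 0.26 (0.481) and 0.65 (0.0572). TPI1, triosephosphate isomerase, spanned 216 to 277 FPKM in the si-SCR libraries and 251 to 292 FPKM after depletion (log2 fold change 0.07 ± 0.0859).

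Lower glycolysis held the highest summed level of the 6 groups of genes, and of its 6 genes ENO2 was lower and 5 did not pass. GAPDH, glyceraldehyde 3-phosphate dehydrogenase, was at 1760, 1995 and 1939 FPKM in si-SCR and at 1912, 1956 and 2016 FPKM in si-CyCoNP, the 16th most abundant gene tested. The groups overlapped; the log2 fold change was -0.02 ± 0.0716 (interval of 1.96 SE, -0.16 to 0.12; edgeR adjusted p = 0.868), and it turned to 0.05 with library totals alone.

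GAPDH is also the reference of the study's RT-qPCR for CyCoNP and mRNAs in SK-N-BE cells. The study used other references for its microRNA and for motor neurons. Its 65 pseudogenes in the table held 67 counts together, 0.0557% of the 120232 counts of GAPDH. Fragments that map to both GAPDH and a pseudogene are dropped, so these counts cannot show how many were lost. Scaling every library to equal GAPDH gave 5 higher and 8 lower genes of the list, with GPI the one that was lost.

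PKM, pyruvate kinase, was at 247 ± 12.1 and 250 ± 7.96 FPKM, ENO1, the common enolase, at 191 ± 17.9 and 198 ± 14.1 FPKM, and PGK1, phosphoglycerate kinase, at 98.7 ± 13.6 and 104 ± 6.16 FPKM in si-SCR and si-CyCoNP. Their log2 fold changes were -0.05 ± 0.072, -0.02 ± 0.0796 and 0.02 ± 0.0869, with intervals of 1.96 SE that stayed within -0.19 to 0.19. PGAM1, phosphoglycerate mutase, was at 40.2, 50.4 and 52.3 FPKM in si-SCR and at 53.8, 56.1 and 57.5 FPKM in si-CyCoNP, without overlap but with the si-SCR spread wider than the gap (log2 fold change 0.16 ± 0.0944, edgeR adjusted p = 0.223). ENO2, neuron-specific enolase and a marker of neuronal differentiation, was at 42.7, 55.6 and 48.3 FPKM in si-SCR and at 33.5, 43.8 and 41.7 FPKM in si-CyCoNP.

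The ENO2 groups overlapped in FPKM and not in normalised counts, and the log2 fold change was -0.37 ± 0.101 (edgeR adjusted p = 0.0069). Leaving out si-SCR replicate 2 (-0.26, adjusted p = 0.0743) or si-CyCoNP replicate 1 (-0.26, 0.0802) ended the call, as did limma on FPKM (0.165 and 0.162), with a range of 3.23e-05 to 0.165 over all alternatives. Its share of enolase was 20.3% ± 1.16 in the si-SCR libraries and 16.6% ± 0.954 after depletion. Of the 9 neuroblastoma markers, 6 were also lower, 1 was higher and 2 did not pass. Of the genes called neuronal or brain types above, SLC2A3 was higher (log2 fold change 0.81) and ALDOC did not pass (-0.04).

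**Figure D4:**
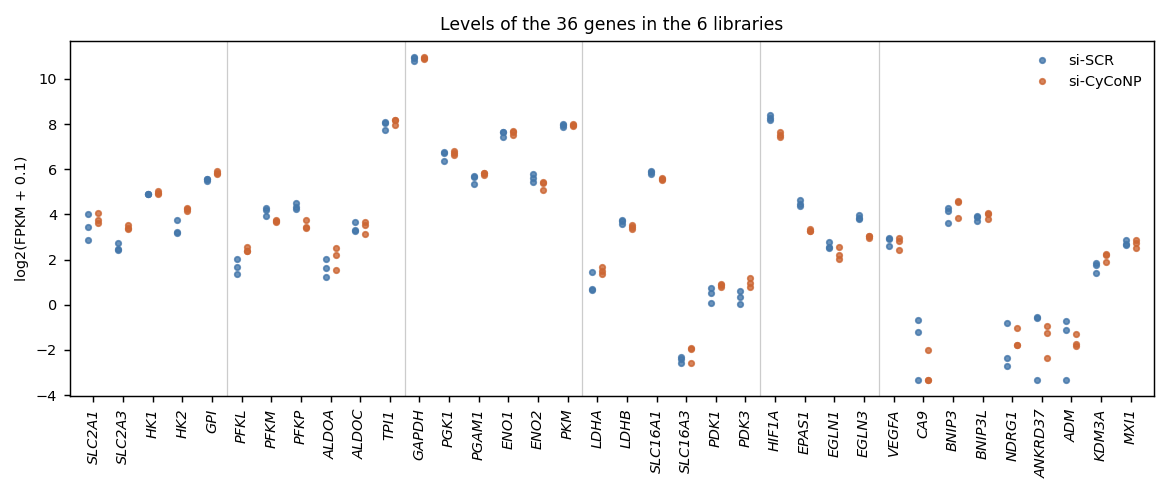
Level of the 36 genes as log2(FPKM + 0.1) (vertical axis) in the 3 si-SCR (blue) and 3 si-CyCoNP (orange) libraries, in the order of the roles, which grey lines divide. GAPDH lies highest, at 1760 to 2016 FPKM, HIF1A is the highest of the hypoxia genes, and SLC16A3, CA9, NDRG1, ANKRD37 and ADM lie below 1 FPKM in every library.

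At the end of the pathway, SLC16A1 was lower, PDK3 higher and 3 genes did not pass. SLC16A1, the lactate transporter MCT1 (chr1:112911847-112957593), was at 58.0, 55.9 and 60.8 FPKM in si-SCR and at 46.3, 47.5 and 49.2 FPKM in si-CyCoNP. The groups did not overlap, and the log2 fold change was -0.36 ± 0.0781 (edgeR adjusted p = 0.000921). SLC16A3, the lactate exporter MCT4 of hypoxic cells, had 3 to 6 counts in every library and was not tested. Another lactate transporter, SLC16A7 (MCT2), named after its values were seen, went from 3.94 ± 0.565 to 1.96 ± 0.279 FPKM (log2 fold change -1.08 ± 0.134, edgeR adjusted p = 5.05e-07).

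By FPKM of uniquely mapped fragments, lactate dehydrogenase was mostly LDHB, the heart type, with less LDHA, the muscle type and HIF target. LDHA has 6 annotated pseudogenes and LDHB 3, so both levels may be underestimates. LDHA was at 1.47, 1.50 and 2.60 FPKM in si-SCR and at 2.76, 3.08 and 2.44 FPKM in si-CyCoNP, with 34 to 80 counts per library. The log2 fold change of 0.49 ± 0.213 did not pass (edgeR adjusted p = 0.0896), and without si-SCR replicate 3, whose level was inside the si-CyCoNP range, it was 0.81 (adjusted p = 0.004; up to 0.278 over all alternatives). LDHB was at 13.5, 12.0 and 12.8 FPKM in si-SCR and at 11.6, 10.9 and 10.1 FPKM in si-CyCoNP, without overlap (log2 fold change -0.30 ± 0.127, edgeR adjusted p = 0.0774), and 33.4% of its exon bases are shared with another gene on its strand. The LDHB share of FPKM was 87.4% ± 3.76 in the si-SCR libraries and 79.8% ± 1.57 after depletion. On counts, not divided by gene length, it was 77.6% and 66.1%.

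The pyruvate dehydrogenase kinases hold pyruvate back from mitochondria. PDK3 was at 0.910, 1.16 and 1.42 FPKM in si-SCR and at 1.86, 1.61 and 2.15 FPKM in si-CyCoNP, without overlap (log2 fold change 0.62 ± 0.177, edgeR adjusted p = 0.00922), at 53 to 121 counts per library. Leaving out si-SCR replicate 1 (0.48, adjusted p = 0.0508) or si-CyCoNP replicate 3 (0.50, 0.0637) ended this call, as did limma on FPKM (0.138 and 0.121), with a range of 0.000551 to 0.138 over all alternatives. PDK1, a HIF-responsive kinase, was at 1.28 ± 0.32 and 1.72 ± 0.0877 FPKM (log2 fold change 0.36 ± 0.171, edgeR adjusted p = 0.123). Without si-SCR replicate 2 the PDK1 log2 fold change was 0.53 and passed (adjusted p = 0.037), and without si-SCR replicate 1 it was 0.19 (0.48).

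Pyruvate entry into mitochondria and its control, a list of 12 genes for carriers, pyruvate dehydrogenase with its kinases and phosphatases, and pyruvate carboxylase, had 11 tested genes and gave none higher and 5 lower (45.5%, against 14.2% of all genes that were lower), with a median log2 fold change of -0.38. PC, pyruvate carboxylase, was at -0.69 ± 0.118 (edgeR adjusted p = 5.64e-05), PDHB, a subunit of pyruvate dehydrogenase, at -0.58 ± 0.132 (adjusted p = 0.00138) and DLD, its dihydrolipoamide dehydrogenase, at -0.49 ± 0.0925 (adjusted p = 0.000173); the remaining 2 were MPC2 and PDHX. Without si-SCR replicate 1, 3 of the list were called, and MPC2 and PDHX were not. In the pentose phosphate pathway, which draws on glucose 6-phosphate, 2 of 8 tested genes were higher and 1 lower (37.5% changed, beside 28.4% of all genes). TKT, transketolase, went from 15.8, 15.2 and 16.3 FPKM in si-SCR to 28.2, 30.7 and 30.8 FPKM in si-CyCoNP (log2 fold change 0.85 ± 0.0818, edgeR adjusted p = 7.19e-09). TALDO1, transaldolase, was at 0.40 ± 0.118 (adjusted p = 0.0124; 0.28 and 0.122 without si-CyCoNP replicate 3) and H6PD, the glucose 6-phosphate dehydrogenase of the endoplasmic reticulum, at -0.91 ± 0.179 (adjusted p = 0.000297). Of 3 tested gluconeogenesis genes, FBP1 was lower, on 3 to 19 counts per library (-1.29 ± 0.454, edgeR adjusted p = 0.033), a call lost when replicate 1 or 2 of either group was left out (adjusted p = 0.0534 to 0.187), with -0.87 without si-CyCoNP replicate 1.

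Of the 9 other HIF targets of the list, 5 were tested and 1 changed (1 of 5, beside 28.4% of all genes). KDM3A, a histone demethylase induced by hypoxia, was at 2.56, 3.24 and 3.52 FPKM in si-SCR and at 3.56, 4.51 and 4.72 FPKM in si-CyCoNP. The groups were separate in FPKM by a narrow gap and overlapped in normalised counts, and the log2 fold change was 0.39 ± 0.13 (edgeR adjusted p = 0.0264). It was lost in DESeq2 (adjusted p = 0.0668), with limma on FPKM (0.12 and 0.126) and without replicate 1 of si-SCR (0.139) or replicate 2 or 3 of si-CyCoNP (0.102 and 0.143), with a range of 0.00221 to 0.143 over all alternatives.

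BNIP3, a mitophagy receptor, was at 12.2, 19.1 and 17.5 FPKM in si-SCR and at 14.2, 23.5 and 23.7 FPKM in si-CyCoNP. Replicate 1 was the lowest in both groups, the groups overlapped and the log2 fold change was 0.27 ± 0.148 (edgeR adjusted p = 0.196), which passed when si-CyCoNP replicate 1 (0.47, adjusted p = 0.006) or si-SCR replicate 3 (0.30, adjusted p = 0.017) was left out. It was 0.11 without si-SCR replicate 1 (0.593), 0.40 with replicate 2 of that group left out (0.056), and 0.16 and 0.14 with replicate 2 or 3 of si-CyCoNP left out (0.548 and 0.566). VEGFA, the angiogenic growth factor, was at 7.04 ± 0.864 and 6.61 ± 1.23 FPKM (log2 fold change -0.16 ± 0.115, edgeR adjusted p = 0.328). BNIP3L, the related receptor, was at 14.2 ± 1.11 and 15.5 ± 1.28 FPKM (0.06 ± 0.108), and MXI1, a MYC antagonist, at 6.52 ± 0.525 and 6.45 ± 0.751 FPKM (-0.08 ± 0.128).

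The remaining targets were near the limit of detection. CA9, carbonic anhydrase IX, was counted 0, 2 and 4 times in si-SCR, against 0, 0 and 1 times after depletion. ADM, adrenomedullin, had 0 to 5 counts, ANKRD37 0 to 6 and NDRG1 2 to 22 over the 6 libraries, and none of these 4 was tested. CA9 and ADM are among the targets usually strongly induced in hypoxia, and at this depth a library without a count allows up to 3 counts. A further 25 HIF targets gave 18 tested genes, of which 2 were higher and 1 lower (16.7% changed, beside 28.4% of all genes), with a median log2 fold change of 0.09. The 3 were GYS1, glycogen synthase (0.57 ± 0.125, edgeR adjusted p = 0.00104), TFRC, the transferrin receptor (0.38 ± 0.0956, adjusted p = 0.00326), and FUT11, a fucosyltransferase (-0.58 ± 0.137, adjusted p = 0.00172).

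The MYC and MondoA families, which also drive glycolytic genes, were given as a list of 8 that included the MondoA targets TXNIP and ARRDC4. Of 6 tested, 3 were higher and 1 lower (beside 14.2% of all genes in each direction). MYCN, the amplified oncogene of many neuroblastomas, was at 446, 408 and 430 FPKM in si-SCR and at 872, 766 and 779 FPKM in si-CyCoNP. The groups did not overlap, and the log2 fold change was 0.84 ± 0.0764 (edgeR adjusted p = 2.65e-09). MLXIP (MondoA), a glucose-sensing factor, was at 0.52 ± 0.0982 (adjusted p = 0.000165), MAX, the partner of MYC proteins and named after its values were seen, at 0.41 ± 0.108 (adjusted p = 0.0044), and TXNIP, a MondoA target that restrains glucose uptake, at -0.48 ± 0.142 (adjusted p = 0.0126) with overlapping groups. The TXNIP call was lost when replicate 3 of si-SCR (-0.26, adjusted p = 0.138) or replicate 2 of si-CyCoNP (-0.42, 0.0704) was left out. ARRDC4, named after its values were seen, was at 0.27 ± 0.189 and did not pass (edgeR adjusted p = 0.316). Its log2 fold change was 0.64 (adjusted p = 0.00496) without si-SCR replicate 3 and 0.11 (0.744) without si-SCR replicate 2.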

How the data were processed

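Stranded total RNA libraries depleted of ribosomal RNA were sequenced by the authors as paired ends. Per the labels and the methods of the study, reads were trimmed (Trimmomatic 0.39, Cutadapt 3.2), cleared of ribosomal reads (Bowtie2 2.4.2) and aligned to GRCh38 with STAR 2.7.7a. The deposited raw counts, made by the authors with STAR, hold uniquely mapped fragments per Ensembl gene. Fragments common to several genes are dropped, so genes with shared exons or close copies are undercounted. The FPKM values, also made by the authors, scale these counts by gene length and library total, with no correction for composition; 22586 genes gave the same length in every library. Of 738 genes inside exons of the opposite strand 28.3% had counts, against 6.53% of 903 on the same strand.

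Groups came from the sample titles. The 13966 genes whose mean FPKM reached 1 in at least 1 group were tested with the edgeR 4.0.16 quasi-likelihood test in R 4.3.3 after TMM normalisation, si-CyCoNP against si-SCR, with Benjamini-Hochberg adjustment over all 13966 genes. Values after ± are the SE of a log2 fold change or the SD of 3 libraries. Overlap between groups was read on TMM-normalised counts unless FPKM is named. Gene positions and shared exons are from GENCODE v44 on GRCh38, and the Ensembl 99 models used for counting may differ. Alternatives were DESeq2 1.42.0, the edgeR likelihood ratio test, other scalings and filters, limma 3.58.1 on log2(FPKM + 1) and log2(FPKM + 0.1), the replicate number as a block, and each library left out. Data were simulated for this comparison with 13966 genes, of which 200 were changed, none from the genes of lowest count. Of genes changed by 0.5 and -0.5 (log2), 60.9% and 66.7% were recovered, and of those changed by 1 and -1, 96.2% and 87.0%. The measured data had 3972 calls, so these rates may not hold there, nor for genes of low count. Counts are not corrected for PCR duplicates. Genes named beyond the 36 were LINC02381 and, in each other list, up to 3 genes with an adjusted p under 0.05 and the largest fold change; exceptions are stated. The 36 genes and the lists were chosen with earlier results of these data known.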

Additional observations from a re-analysis of the deposited data

How the results depend on the processing

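Of the 14 genes that changed, all 14 kept their direction and 9 stayed past the threshold in all 17 alternatives; the exceptions (GPI, ENO2, PDK3, EGLN1, KDM3A) are given with their values above. With a log2 fold change beyond 1 also required, 735 of all genes, 0 higher genes and 1 lower gene of the list were called. Leaving out each library in turn gave 3 to 9 higher genes and 6 to 8 lower, 3229 to 4397 calls over all genes, and a median log2 fold change of the list from -0.06 to 0.08. DESeq2 gave 5 higher and 7 lower, limma on FPKM 4 and 6. Replicate numbers are shared by the groups, and the labels do not say whether same-numbered libraries were paired. Deviations of same-numbered libraries correlated at 0.091, 0.073 and 0.108, and each library correlated best with its own number. Those of differently numbered libraries correlated at -0.067 to -0.023. The fit with the replicate block gave 10 higher and 9 lower genes and 4771 calls over all genes. It added SLC2A1, LDHA, PDK1 and BNIP3 to the higher and LDHB to the lower. Values near 0 changed sign, none of them past the threshold. With library totals alone HK1 was at 0.06, ALDOC at 0.03, GAPDH at 0.05, ENO1 at 0.05 and PKM at 0.02. Limma on either FPKM scale gave HK1 0.05, ALDOC 0.02, GAPDH 0.05, ENO1 0.05 and PKM 0.02. Scaled to GAPDH, HK1 and ENO1 were at 0.00. Leaving out each library in turn gave HK1 from -0.04 to 0.01, ALDOC from -0.17 to 0.11, TPI1 from -0.01 to 0.14, GAPDH from -0.06 to 0.02, PGK1 from -0.08 to 0.08, ENO1 from -0.08 to 0.04 and MXI1 from -0.16 to 0.01. The cause was not tested.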
